A study of Mus musculus with 6 samples.

Results

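The dermal papilla is the small cluster of mesenchymal cells at the base of the hair follicle, and 9 genes that mark it were followed in skin of wild type and Hoxc13 targeted mice: Corin, Alpl, Vcan, Sox2, Rspo2, Rspo3, Trps1, Prdm1 and Tbx18. The genes were taken from a fixed list of papilla and follicular dermis symbols, chosen with earlier results of these data known. Each was matched to the array by its symbol. All 9 had a probe set, 1 per gene, among the 16331 probe sets that were not controls. Total RNA of dissected whole skin was hybridised to Affymetrix arrays. There were 3 samples labelled WT and 3 labelled as Hoxc13 knockout with the allele Hoxc13tm1Mrc, all on a C57BL/6 background, with 5 dpn in the titles and male as the sex. No treatment is named for either group, and both carry the same labelled background. The design text calls the samples independent. Whether a sample is 1 animal is not stated in the labels, so the p-values cover only the variation among these samples.

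The papilla does not make hair itself. It sends signals to the epithelial matrix cells around it, which divide and form the shaft and its inner sheath, and it receives signals back from that epithelium. Hoxc13 is a homeobox transcription factor best known from the epithelial side, the matrix and the shaft, so the papilla genes report on the tissue next to the cells in which the factor is known to act. R-spondins from the papilla strengthen Wnt signalling in cells that carry Lgr receptors, and versican and alkaline phosphatase are used to stain the papilla. Sox2 and Tbx18 are transcription factors, and Sox2 is used to tell papillae of different follicle types apart.

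Values are log2 RMA values, in which a difference of 1 is a 2-fold change, and all levels and differences below are on that scale. The number of arrays limits the precision. Mutant replicate 3 departed from its group. Its correlation with them over all probe sets was 0.989 and 0.99, against 0.997 between mutant replicates 1 and 2, and along the second principal component it lay at -26.6 against 13.1 and 11.1. Hoxc13 itself read 9.63, 9.81 and 9.83 in wild type and 8.95, 8.75 and 9.74 in mutant replicates 1, 2 and 3. Its difference of -0.61 (SE 0.23) was not called (adjusted p = 0.293), but in the fit that dropped mutant replicate 3 it was, at -0.90 (adjusted p = 0.00114). The labels do not say whether its probes lie in the altered stretch of the gene, so this value is no check of the labels. Xist, made from the inactive X chromosome, read 11.15 to 11.67 on every array, and 5 Y-linked probe sets read 2.98 to 4.89, against the labelled sex. The Y-linked range serves below as a mark of readings not shown to be above background. The labelled tissue was checked on 7 basal keratinocyte markers, which averaged at least 10.84 on every array. Results on the papilla genes are given with and without mutant replicate 3.

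Papilla genes read higher in mutant replicates 1 and 2 and mostly did not in mutant replicate 3. With all 6 arrays, the difference was above 0 for 7 of the 9 genes, with a median of 0.383 against 0.0247 over all probe sets. None of the 9 passed limma's test at an adjusted p under 0.05, where 0.478% of all probe sets were called higher and 1.6% lower (2.08% together). At an unadjusted p under 0.05 there were 3 of the 9, and 14.4% of all probe sets. Alpl came closest (adjusted p = 0.0673), followed by Corin (adjusted p = 0.1). Without mutant replicate 3, 7 of the 9 were called higher and none lower, where 7.95% of all probe sets were called higher and 6.23% lower. That fit rests on only 2 mutant arrays, which correlate closely, so its p-values may understate the spread between mutant samples. In bulk skin, a change in the number of papilla cells and a change in RNA per cell cannot be told apart.

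**Figure D1:**
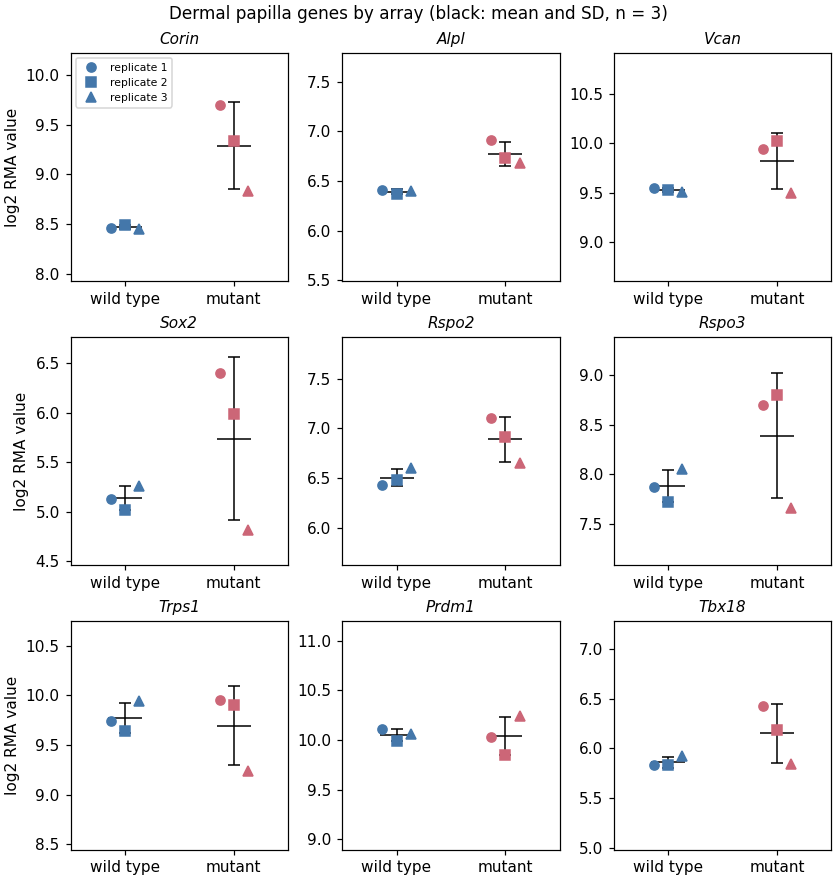
Log2 RMA value of each of the 9 papilla genes on each array, wild type in blue and mutant in red, with the replicate number as the symbol and the group mean and SD (n = 3) in black; every panel spans the same height. Mutant replicate 3 (triangle) is the lowest mutant value of every gene but Prdm1, and the mutant values lie above all wild type values for Corin, Alpl and Rspo2.

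Corin, a transmembrane serine protease of the papilla that acts on coat colour through the agouti pathway, had the largest difference of the 9. It read 8.46, 8.49 and 8.45 in wild type replicates 1, 2 and 3 and 9.70, 9.34 and 8.83 in mutant replicates 1, 2 and 3. All 3 mutant arrays lay above all wild type arrays, which differed among themselves by far less than the mutant arrays did. The difference was 0.83 (SE 0.20, 95% interval 0.37 to 1.28), a 1.77-fold higher mean, with adjusted p = 0.1. It was larger than that of 99.6% of all probe sets. Without mutant replicate 3 it was 1.06 (SE 0.11, adjusted p = 9.49e-04).

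Alpl, the tissue-nonspecific alkaline phosphatase whose activity is stained to find the papilla, read 6.41, 6.37 and 6.40 in wild type and 6.91, 6.73 and 6.68 in mutant replicates 1, 2 and 3. The groups did not overlap here either, and replicate 3 lay close to replicate 2. The difference was 0.38 (SE 0.0806, 95% interval 0.20 to 0.57), or 1.3-fold, with adjusted p = 0.0673. Its mutant arrays differed less (SD 0.12, n = 3) than those of Corin (SD 0.44, n = 3), and it had the smallest p of the 9. Without mutant replicate 3 the difference was 0.43 (adjusted p = 0.0119).

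Vcan encodes versican, a large chondroitin sulfate proteoglycan that fills the matrix of the papilla of growing hairs. Its wild type values were tight at 9.55, 9.53 and 9.51, and the mutant values were 9.94, 10.02 and 9.50. Mutant replicate 3 was thus marginally below the lowest wild type array, and the others were above the highest. The difference was 0.29 (SE 0.13, 95% interval -0.0239 to 0.60, adjusted p = 0.382), and 0.45 (SE 0.0677, adjusted p = 0.00584) without that array.

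The stretches before the transcription starts of Corin, Alpl and Sox2 are shown because Corin and Alpl are the members with an entry in the RefSeq promoter table whose groups did not overlap, and Sox2 is the member with the widest spread among mutant arrays. Each is the 250 bases before a start, 5′ to 3′ on the strand of the gene, in build GRCm38.p6. Capitals mark every match, on either strand, to TTTAT or TTAAT, a pair of short cores bound by many homeodomain proteins, and to CTTTG, the core bound by LEF and TCF factors; none of these matches overlap.
Corin, chr5:72504541-72504790, minus strand: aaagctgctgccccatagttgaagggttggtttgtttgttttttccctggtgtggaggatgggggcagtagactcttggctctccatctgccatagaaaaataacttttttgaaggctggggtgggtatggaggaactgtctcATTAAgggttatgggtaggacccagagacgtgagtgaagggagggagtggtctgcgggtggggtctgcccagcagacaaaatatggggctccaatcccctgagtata
Alpl, upstream start, chr4:137796385-137796634, minus strand: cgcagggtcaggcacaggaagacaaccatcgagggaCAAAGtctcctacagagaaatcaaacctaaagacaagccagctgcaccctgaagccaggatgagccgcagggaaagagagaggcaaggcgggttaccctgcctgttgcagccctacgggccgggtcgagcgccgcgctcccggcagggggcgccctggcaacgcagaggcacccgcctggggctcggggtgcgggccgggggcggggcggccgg
Alpl, downstream start, chr4:137766476-137766725, minus strand: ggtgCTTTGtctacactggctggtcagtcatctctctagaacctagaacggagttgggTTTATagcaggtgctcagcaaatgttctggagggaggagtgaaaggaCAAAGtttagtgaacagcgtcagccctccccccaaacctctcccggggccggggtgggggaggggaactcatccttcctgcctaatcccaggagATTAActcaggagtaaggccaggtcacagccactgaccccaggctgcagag
Sox2, chr3:34649745-34649994, plus strand: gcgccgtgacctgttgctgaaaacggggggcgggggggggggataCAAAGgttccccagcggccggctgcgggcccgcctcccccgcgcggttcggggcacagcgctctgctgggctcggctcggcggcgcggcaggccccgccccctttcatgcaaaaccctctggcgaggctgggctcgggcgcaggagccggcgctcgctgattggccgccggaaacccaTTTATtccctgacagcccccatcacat
Corin had 1 match, to TTAAT, and the upstream start of Alpl had 1, to CTTTG. The downstream start of Alpl had 4 matches, and Sox2 had 1 to TTTAT and 1 to CTTTG. Over the 7 entries of the 6 members found in the table (Corin, Alpl, Vcan, Sox2, Prdm1 and Tbx18), TTTAT was in 3, TTAAT in 2 and CTTTG in 4. Among all 32851 promoters of that length in the table, 37.3% held TTTAT, 24.9% held TTAAT and 48.6% held CTTTG, so matches to cores this short are common. They describe the letters and say nothing of binding. Rspo2, Rspo3 and Trps1 have no entry in the table.

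The secreted signals among the 9 are Rspo2 and Rspo3, R-spondins that bind Lgr receptors and remove a brake on Wnt receptors. Rspo2 read 6.43, 6.48 and 6.60 in wild type and 7.11, 6.91 and 6.65 in mutant replicates 1, 2 and 3. The groups did not overlap, although mutant replicate 3 cleared the highest wild type array only narrowly. The difference was 0.39 (SE 0.12, 95% interval 0.11 to 0.67, adjusted p = 0.195), and 0.51 (adjusted p = 0.0108) without mutant replicate 3.

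Rspo3 read 7.87, 7.72 and 8.05 in wild type and 8.70, 8.80 and 7.66 in mutant replicates 1, 2 and 3. Here mutant replicate 3 lay below every wild type array while the others lay well above, so the groups overlapped. The difference was 0.50 (SE 0.28, 95% interval -0.15 to 1.16, adjusted p = 0.46), and 0.87 (SE 0.10, adjusted p = 0.00206) without that array. Rspo1, which is not among the 9 and was named after its values were seen, likewise had mutant replicate 3 below every wild type array and the others above. It read 6.95 to 7.13 in wild type and 7.74, 7.71 and 6.79 in mutant replicates 1, 2 and 3.

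Among the transcription factors, Sox2, an HMG box factor of the papillae of guard, awl and auchene hairs, had the widest mutant range of the 9. Wild type values were 5.13, 5.02 and 5.26, and mutant values were 6.40, 5.99 and 4.82. The wild type values lay only slightly above the Y-linked range, which ended at 4.89. Mutant replicate 3 was the lowest of all 6 arrays and lay within that range, so Sox2 is not shown to be above background there. The difference was 0.60 (SE 0.36, 95% interval -0.23 to 1.43, adjusted p = 0.485), and 1.06 (SE 0.13, adjusted p = 0.0024) without that array. Sox2 also marks Merkel cells and Schwann cells, so its level in whole skin is not the papilla's alone. Of 6 Merkel cell markers none passed the test, and without mutant replicate 3, 2 were called lower and none higher. That fit called 6.23% of all probe sets lower and 7.95% higher, and the fit of all 6 arrays called 2.08%. The Merkel cell list mean spanned 5.63 to 5.85 in wild type and 5.37 to 5.70 in mutant skin. Atoh1, which defines these cells and was singled out after its values were seen, lay within the Y-linked range on every array at 4.64 to 4.70. Of 7 Schwann cell markers 4 were measured and none passed, with list means of 7.72 to 7.93 in wild type and 7.93, 7.96 and 8.07 in mutant replicates 1, 2 and 3. The list was split, as 2 of its genes, named after their values were seen, show. The myelin gene Mbp read 8.33, 8.51 and 7.62 in wild type and 9.08, 9.06 and 8.66 in mutant replicates 1, 2 and 3, with no overlap (difference 0.78, adjusted p = 0.177, and 0.91 with adjusted p = 0.0372 without mutant replicate 3). S100b, a calcium-binding protein of glia and other cells, read 6.01, 5.94 and 6.06 against 5.53, 5.59 and 5.89, also with no overlap (difference -0.33, adjusted p = 0.209, and -0.44 with adjusted p = 0.00784 without mutant replicate 3). The part of Merkel and Schwann cells in the Sox2 values was not tested.

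Tbx18, a T-box factor of the papilla mesenchyme, read 5.83, 5.83 and 5.92 in wild type and 6.43, 6.19 and 5.84 in mutant replicates 1, 2 and 3. Mutant replicate 3 lay inside the wild type range, the only one of the 9 genes for which it did. The difference was 0.29 (SE 0.14, 95% interval -0.0331 to 0.62, adjusted p = 0.393), and 0.45 (adjusted p = 0.0161) without that array.

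Trps1 and Prdm1 did not share this pattern. Trps1, a GATA-type repressor whose human gene is mutated in tricho-rhino-phalangeal syndrome, read 9.74, 9.64 and 9.94 in wild type and 9.95, 9.90 and 9.24 in mutant replicates 1, 2 and 3. Its difference was -0.0753 (95% interval -0.51 to 0.36, adjusted p = 0.90), and 0.15 (95% interval -0.07 to 0.37, adjusted p = 0.33) without mutant replicate 3. The sign therefore turned with that array, whose value was the lowest of the 6.

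Prdm1 encodes Blimp1, a zinc finger repressor that is also made in epidermis and inner root sheath. It read 10.11, 9.99 and 10.06 in wild type and 10.03, 9.85 and 10.24 in mutant replicates 1, 2 and 3. This was the only gene of the 9 with its highest mutant value in replicate 3. The difference was -0.0163 (95% interval -0.26 to 0.23, adjusted p = 0.969), and -0.12 (95% interval -0.31 to 0.0716, adjusted p = 0.377) without that array.

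**Figure D2:**
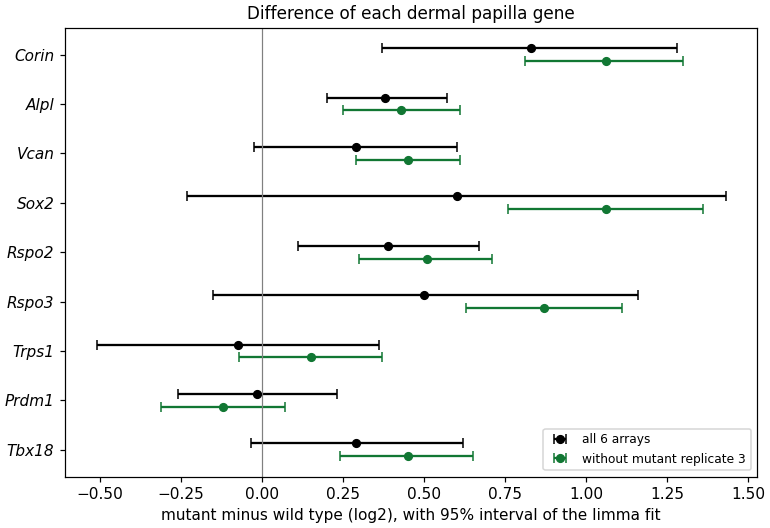
Difference of each papilla gene, mutant minus wild type on the log2 scale, with the 95% interval of the limma fit, from all 6 arrays in black and without mutant replicate 3 in green. With all arrays the intervals of Corin, Alpl and Rspo2 lie above 0; without mutant replicate 3 so do those of Vcan, Sox2, Rspo3 and Tbx18, while those of Trps1 and Prdm1 span 0 in both. These intervals are for single genes and are not adjusted for the number of genes tested.

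Mutant replicates 1 and 2 were not alike for every gene, at 9.70 and 9.34 for Corin and 6.40 and 5.99 for Sox2. Replicate 3 was lower than both for every gene but Prdm1. In mutant replicates 1 and 2, 7 of the 9 lay above every wild type array, as did 27.2% of all probe sets. In mutant replicate 3, 4 lay above every wild type array (Corin, Alpl, Rspo2 and Prdm1), 4 below every wild type array (Vcan, Sox2, Rspo3 and Trps1) and 1 within the wild type range. The gap between replicate 3 and the mean of the other mutant arrays was -0.14 for Alpl, -0.36 for Rspo2, -0.70 for Corin, -1.09 for Rspo3 and -1.38 for Sox2. Of the 9, 8 were lower in replicate 3, with a median of -0.483, where 46.1% of all probe sets were lower and their median was 0.022. Complete separation with mutant values higher held for 3 of the 9 and for 12.5% of all probe sets. Complete separation with mutant values lower held for 0 of the 9 and for 7.82% of all probe sets. None of the 9 was called in any fit that kept mutant replicate 3 and dropped 1 of the other arrays. The difference in those fits ranged from 0.62 to 0.84 for Corin, from 0.32 to 0.41 for Alpl and from 0.27 to 0.66 for Sox2.

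The list of other papilla genes, written with earlier results of these data known, gave few calls. Of 27 genes 26 were measured. Of these, 2 rose, none fell and 24 did not pass, with a median of 0.146. Over all probe sets 0.478% were called higher and 1.6% lower, with a median of 0.0247. Inhba, which encodes an activin subunit, read 7.34, 7.31 and 7.25 in wild type and 7.93, 7.88 and 7.66 in mutant replicates 1, 2 and 3. It rose by 0.53 (SE 0.0888, adjusted p = 0.0301), and the groups did not overlap. Gli1, a transcription factor and target of Hedgehog signalling made in both papilla and matrix, read 7.61, 7.64 and 7.69 against 8.56, 8.32 and 8.04. It rose by 0.66 (SE 0.13, adjusted p = 0.0488), again without overlap. Both calls were lost in each fit that dropped 1 array but kept mutant replicate 3, with ranges of 0.47 to 0.55 for Inhba and 0.53 to 0.68 for Gli1.

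Other genes of that list are named here after their values were seen. Ndp encodes Norrin, a secreted Wnt pathway ligand, and its mutant values of 6.24, 5.97 and 5.03 stood against 4.75 to 5.07 in wild type, where 2 of 3 arrays lay within the Y-linked range. Pappa, a protease that cleaves IGF binding proteins, read 6.92 to 7.03 in wild type and 8.05, 7.62 and 7.31 in mutant replicates 1, 2 and 3. Hhip, a Hedgehog inhibitor and target, read 6.58 to 7.05 against 7.62, 7.55 and 7.08. Mutant replicate 3 was again the lowest mutant array for all 3 genes. Their differences of 0.87, 0.70 and 0.58 did not pass (adjusted p = 0.215, 0.107 and 0.176), and were 1.23, 0.87 and 0.75 without mutant replicate 3 (adjusted p = 7.46e-04, 0.00411 and 0.0103).

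Bmp4, a papilla signal that acts on the hair-forming epithelium, differed little between mutant arrays, at 10.31, 10.24 and 10.30 against 9.98 to 10.05 in wild type. The groups did not overlap. Its difference of 0.27 (SE 0.0659) did not pass (adjusted p = 0.104), and was 0.27 (adjusted p = 0.0413) without mutant replicate 3. Lef1, the Wnt-responsive factor made in both papilla and matrix, went the other way, with 7.53, 7.96 and 7.92 in wild type and 7.08, 7.23 and 7.77 in mutant skin. Its difference of -0.45 did not pass (adjusted p = 0.35), and was -0.66 (adjusted p = 0.0177) without mutant replicate 3. Crabp1, a retinoic acid binding protein of papilla and upper dermis, read 7.43 to 7.62 in wild type and 7.01, 7.16 and 7.38 in mutant replicates 1, 2 and 3. All mutant arrays lay below all wild type arrays. The difference was -0.36 (adjusted p = 0.185), and -0.45 (adjusted p = 0.014) without mutant replicate 3. Over the whole list, 20 of the 26 genes had a higher and 6 a lower value in mutant skin. Of the 26, 10 were called higher and 4 lower without mutant replicate 3, with a median of 0.194. That fit called 7.95% of all probe sets higher and 6.23% lower, with a median of 0.016.

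The receptors for R-spondins were read from a list of 14 receptor and Wnt feedback genes, of which 13 were measured and none passed. The smallest p was that of Lgr4, a broadly made receptor, at 10.99, 11.03 and 11.10 in wild type and 11.61, 11.44 and 11.35 in mutant replicates 1, 2 and 3. The groups did not overlap, and the difference was 0.43 (SE 0.0869, adjusted p = 0.0598), and 0.48 (adjusted p = 0.00876) without mutant replicate 3. Lgr5 and Axin2 were named after their values were seen. Lgr5, the receptor of cycling follicle stem cells, read 9.37 to 9.41 against 10.10, 9.84 and 9.44, so the groups did not overlap. Its difference of 0.40 did not pass (adjusted p = 0.299), and was 0.58 (adjusted p = 0.00637) without mutant replicate 3. Axin2, a feedback target commonly read as a measure of Wnt signalling, was at 7.37 to 7.46 in wild type and 7.41, 7.25 and 7.71 in mutant skin. Its difference was 0.0383 (adjusted p = 0.923), and -0.0883 without mutant replicate 3. The list median was 0.0383, close to that of all probe sets. Without mutant replicate 3 it was -0.0408, with 3 of 13 called higher and none lower. The same fit called 7.95% of all probe sets higher and 6.23% lower, with a median of 0.016.

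**Figure D3:**
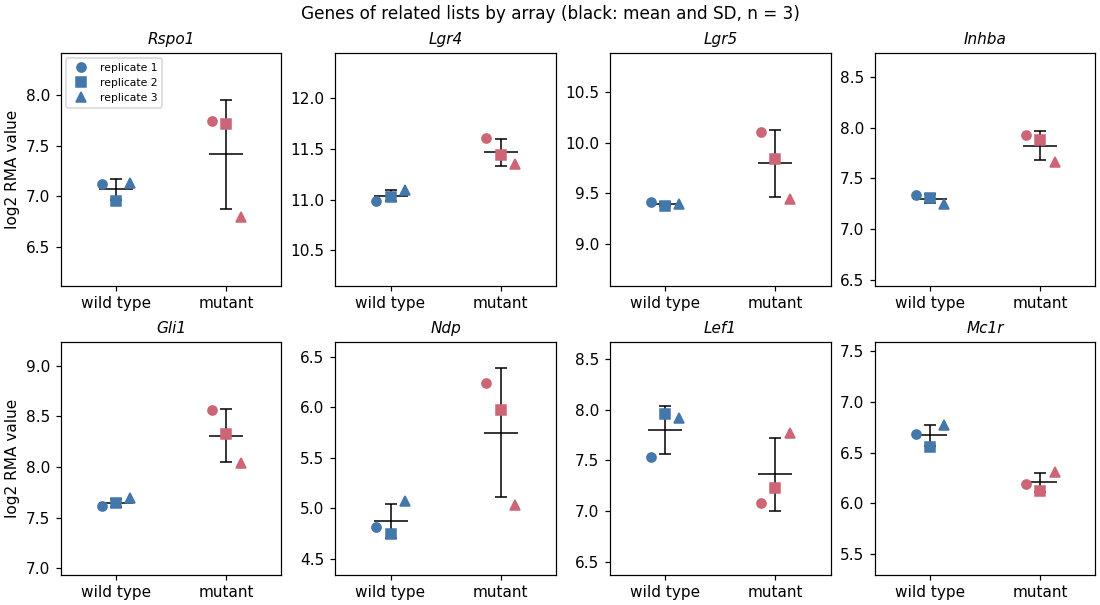
Log2 RMA value on each array of 8 genes from the related lists, wild type in blue and mutant in red, with the replicate number as the symbol and the group mean and SD (n = 3) in black. Inhba, Gli1, Lgr4 and Lgr5 separate the groups upward and Mc1r downward, Lgr5 only narrowly in mutant replicate 3. For Rspo1, Ndp and Lef1 mutant replicate 3 lies near or within the wild type values.

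Genes that build or cut the versican matrix showed 1 call. Of 16 such genes 14 were measured, with a median of 0.0722, and 13 did not pass. Over all probe sets 0.478% were called higher and 1.6% lower. Adamts5, a protease that cleaves versican and aggrecan, read 8.97, 8.90 and 9.07 in wild type and 8.62, 8.59 and 8.56 in mutant replicates 1, 2 and 3. It fell by 0.39 (SE 0.0731, adjusted p = 0.0432) with all mutant arrays below all wild type arrays, including replicate 3. The call was lost without any array other than mutant replicate 3 (range -0.43 to -0.35). Without mutant replicate 3, 4 of the 14 were called higher and 2 lower, against 7.95% and 6.23% of all probe sets.

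A list of Corin substrates, agouti pathway genes and genes related to either held 11 genes, all measured, with a median of 0.0133. Of these, 10 did not pass, where 0.478% of all probe sets were called higher and 1.6% lower. The melanocortin receptor Mc1r, the target of agouti on pigment cells, read 6.68, 6.56 and 6.77 in wild type and 6.19, 6.12 and 6.31 in mutant replicates 1, 2 and 3. It fell by 0.47 (SE 0.0871, adjusted p = 0.0435), and the call was lost without any array other than mutant replicate 3 (range -0.52 to -0.41). The agouti gene itself (symbol a), which the papilla makes and which was named after its values were seen, read 4.82 to 5.03 in wild type, partly within the Y-linked range, and 5.42, 5.36 and 5.10 in mutant skin. The groups did not overlap, but the difference of 0.34 did not pass (adjusted p = 0.202), and was 0.43 (adjusted p = 0.016) without mutant replicate 3. In that fit 1 of the 11 was called higher and 1 lower, against 7.95% and 6.23% of all probe sets. The list median was -0.122 there. Npr3, the clearance receptor for the natriuretic peptides that Corin activates in heart, had the largest difference of this list at -1.09 (SE 0.29, adjusted p = 0.134) and was named after its values were seen. It read 7.41, 7.68 and 8.50 in wild type and 6.54, 7.18 and 6.61 in mutant replicates 1, 2 and 3. In the list of 6 melanocyte markers none passed, and the list mean was 10.81 to 11.01 in wild type and 10.40, 10.21 and 10.84 in mutant replicates 1, 2 and 3. In the fit that left out mutant replicate 3, 5 of the 6 were called lower and none higher, with a median of -0.477. The part of pigment cell number in the Mc1r value was not tested.

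None of the 14 measured mesenchymal transcription factors passed, of 15 listed, with a median of 0.164. The smallest p was that of Tbx15, a T-box factor of dorsal dermis, at 7.98, 8.19 and 8.04 in wild type and 8.59, 8.47 and 8.20 in mutant skin (difference 0.35, SE 0.11, adjusted p = 0.214). Twist2, a basic helix-loop-helix factor of dermal fibroblasts that was named after its values were seen, read 9.30, 9.10 and 9.19 against 9.90, 9.98 and 8.88. As with Vcan, Sox2 and Rspo3, mutant replicate 3 lay below all wild type arrays. Without that array 6 of the 14 were called higher and none lower, against 7.95% and 6.23% of all probe sets. The list median was then 0.281, and that of all probe sets 0.016.

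Markers of other cells in the skin moved with the arrays as well. The mean of the 9 papilla genes was 7.68 to 7.80 in wild type and 8.35, 8.19 and 7.72 in mutant replicates 1, 2 and 3. Of the 18 dermal fibroblast markers 16 were measured and none passed, and their mean was 11.26 to 11.41 in wild type and 11.45, 11.52 and 11.23 in mutant replicates 1, 2 and 3. For both means, mutant replicates 1 and 2 lay above all wild type arrays. Mutant replicate 3 lay below them for the fibroblast mean and within their range for the papilla mean. Of the 16, 4 were called higher and 1 lower without mutant replicate 3, against 7.95% and 6.23% of all probe sets. The 9 dermal sheath and smooth muscle markers, none of which passed, averaged 8.60 to 8.75 in wild type and 9.04, 9.0 and 8.73 in mutant replicates 1, 2 and 3, and 2 were called higher without mutant replicate 3. When every array was centred on its fibroblast marker mean, a setting chosen after seeing the data, Corin differed by 0.75 and was called (adjusted p = 0.0217), and the other 8 were not. Over all probe sets that setting gave 35 higher and 260 lower calls, against 78 and 261 without it. How far the share of dermis in each sample bears on the papilla values was not tested beyond this.

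Of 10 skeletal muscle markers Myh2 rose (1.23, adjusted p = 0.0195) and 9 did not pass. With all 6 arrays, 0.478% of all probe sets were called higher and 1.6% lower. Myh2 did not pass when the fit dropped wild type replicate 1 (1.34), mutant replicate 1 (1.23) or mutant replicate 2 (1.23). The mean of the muscle markers was 9.92 to 11.13 in wild type and 11.67, 11.15 and 10.66 in mutant replicates 1, 2 and 3. Mutant replicate 3 thus read lowest of the mutant arrays for muscle genes. The 6 macrophage markers, none of which passed, averaged 8.53 to 8.54 in wild type and 8.77, 9.09 and 8.60 in mutant skin. The 6 endothelial markers (7.12 to 7.42 in wild type, 7.13 to 7.42 in mutant) and the 4 measured of 6 fat cell markers (11.14 to 11.41 and 10.82 to 11.56) held no called gene. Called higher without mutant replicate 3 were 4 muscle, 3 macrophage, 2 fat cell and 0 endothelial markers, and none was called lower. That fit called 7.95% of all probe sets higher and 6.23% lower. The part of muscle, macrophage, endothelial and fat cells in the papilla values was not tested.

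Epithelial lists differed in how mutant replicate 3 stood to the other mutant arrays. All 8 hair shaft keratins fell, with a median of -6.67, and in mutant replicate 3 their mean was lower still, at 5.44 against 5.86 and 6.01. That gap ran from -0.0435 for Krt33b to -1.91 for Krt33a. In mutant replicate 3 Krt33a (4.86), Krt82 (4.87) and Krt86 (4.71) lay within the Y-linked range, so they are not shown to be above background there. These keratins were named after their values were seen. Of 9 inner root sheath markers 8 were measured; Krt26 and Krt72 fell and 6 did not pass, with means of 12.82 to 12.91 in wild type and 12.11, 12.18 and 12.60 in mutant replicates 1, 2 and 3. The Krt72 difference of -2.2 lost its call without wild type replicates 1, 2 or 3 (-2.19, -2.22 and -2.2) or mutant replicate 2 (-2.04), and that of Krt26 (-1.9) kept it in each of the 6 fits with 1 array left out. The sebaceous gland markers, 5 measured of 6 and none called, averaged 9.67 to 9.71 against 8.56, 8.95 and 9.63. Basal keratinocyte markers, 7 measured and none called, averaged 10.84 to 11.02 against 11.02, 11.03 and 11.32. Of the 7 differentiated epidermis markers Ivl fell and 6 did not pass, with means of 12.68 to 12.71 and 12.77, 12.70 and 12.55. Mutant replicate 3 thus read higher than the other mutant arrays for sheath, sebaceous and basal genes and lower for hair shaft, differentiated epidermis, papilla, fibroblast, dermal sheath and muscle genes. Without it, 4 of 8 inner root sheath, 4 of 5 sebaceous gland and 1 of 7 differentiated epidermis markers were called lower. In the same fit 1 of 7 basal keratinocyte markers was called higher. Of all probe sets 6.23% were called lower and 7.95% higher there, and 1.6% lower and 0.478% higher with all 6 arrays.

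**Figure D4:**
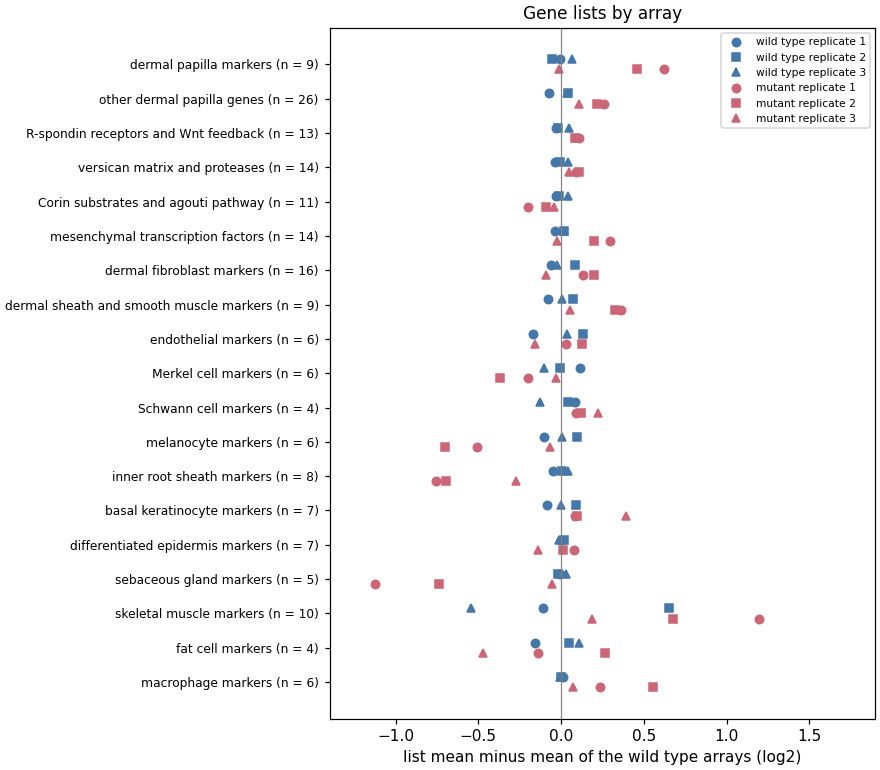
Mean of each gene list on each array minus its mean over the wild type arrays (log2), wild type in blue and mutant in red, with the replicate number as the symbol and the number of measured genes in brackets; hair shaft keratins, with a mean difference of -6.12, are left out for scale. For the 9 papilla markers mutant replicates 1 and 2 lie to the right of all wild type arrays and mutant replicate 3 among them.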

How the data were processed

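Total RNA of dissected mouse skin was read on 6 Affymetrix arrays. Per the labels' protocols, RNA was amplified once with an oligo(dT) primer, so probes near the 3′ end dominate. The authors deposited log2 values made with RMA, per the submitters' processing notes, which name no version. The method corrects background and quantile normalises the arrays, which hides any change in total RNA and shrinks differences of dim probe sets. Detection calls were not used here.

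Of 16395 probe sets 64 controls were left out. The platform annotation named 1 gene for 15644 of the rest and did not list 687. Groups came from the labels. The moderated test of limma 3.58.1 (R 4.3.3, two-sided, without a block) was fitted to all 16331 probe sets. Benjamini-Hochberg adjustment ran over all of them, with calls at an adjusted p under 0.05. The test was tried on simulated arrays with independent errors and no array set apart as mutant replicate 3 was. Its behaviour with such an array was not tested. Figures used Python 3.11.15 and matplotlib 3.10.9. Promoters came from the RefSeq table of GRCm38.p6.

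The 9 papilla genes and all 20 lists were chosen with earlier results of these data known. Named were the 9 genes, Hoxc13, up to 4 called genes of each related list or else the gene with the smallest p, and up to 2 called markers of each cell type list, save the hair shaft keratins, given by count; other names are marked as chosen after their values were seen. Alternatives were a low-level filter, repeated quantile normalisation, median centring, an intensity trend with a robust prior, no moderation, array weights, a block for the replicate number, each array left out and centring on fibroblast markers.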

Additional observations from a re-analysis of the deposited data

How the results depend on the processing

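The count of papilla genes called was 0 under the low-level filter (which removed Sox2 and left 12248 probe sets), repeated quantile normalisation, median centring, the intensity trend with a robust prior, no moderation and the replicate block. It was 7 with array weights, which gave mutant replicate 3 a weight of 0.234 against at least 1.23 for the others, and 1 with centring on fibroblast markers. With 1 array left out it ranged from 0 to 7, the 7 coming from the fit without mutant replicate 3. Over all probe sets 339 calls became 84 without moderation, 1880 with array weights and 151 to 2316 with 1 array left out. The 5 related lists held 78 measured genes. Their 4 calls became 0 without moderation, 24 with array weights, 2 with fibroblast centring and 0 to 31 with 1 array left out. Over all probe sets 2.08% were called with all 6 arrays and 14.2% without mutant replicate 3, the fit that gave the 31. With the replicate block there were 197 calls over all probe sets, 0 in the related lists and 0 among the papilla genes. Arrays of the same number did not deviate together (correlations of 0.04, -0.12 and -0.09). With so few arrays, and mutant replicate 3 apart from its group, this cannot decide whether the numbers pair the samples. The sign of Trps1 turned with array weights (0.0949), without wild type replicate 3 (0.00617) and without mutant replicate 3 (0.15), with a range of -0.20 to 0.15 over the fits with 1 array left out. That of Prdm1 turned without wild type replicate 1 (0.012) and without mutant replicate 2 (0.0777). That of Axin2 turned with array weights (-0.056), without mutant replicate 3 (-0.0883) and with fibroblast centring (-0.0419), with a range of -0.0883 to 0.14 over the fits with 1 array left out. Apart from the array weights, which give mutant replicate 3 little say, and the fits with fewer arrays, the cause of these changes was not tested. That of Atoh1, near 0 throughout, turned in fits with 1 array left out, which ranged from -0.0283 to 0.00317. The other 7 papilla genes kept a positive difference under every alternative that held them. Readings within the Y-linked range, as for Sox2, Ndp and agouti on some arrays, limit what a difference there can show.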
